A study of Homo sapiens with 118 samples.

Results

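The 10 genes GSN, VIL1, FLNA, TPM1, TPM2, ACTA2, ACTG2, TAGLN, CNN1 and MYL9 code for proteins that bind, form or regulate actin filaments, and several of them are known from the smooth muscle cytoskeleton. They were found by name, as the rows of the count table whose gene symbol, without the probe number, equals 1 of these symbols. This gave 12 features (detector probes) for 10 genes, out of 22068 features for 19470 symbols. TPM1 and ACTG2 each had a pair of probes and the other genes 1 probe each. The expression of these features was followed in the human liver cell line HepaRG after exposure to 8 histone deacetylase inhibitors at 5 concentrations.

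Actin filaments are built, cut, capped and cross-linked by a large set of binding proteins. Gelsolin (GSN) and villin (VIL1) belong to a family that severs and caps filaments, filamin A (FLNA) cross-links them, and the tropomyosins lie along their length. Smooth muscle alpha-actin (ACTA2), gamma-actin (ACTG2), transgelin (TAGLN), calponin (CNN1) and the regulatory light chain MYL9 are typical of contractile cells, and in liver ACTA2 is widely used as a marker of activated stellate cells. Histone deacetylases remove acetyl groups from histones and other proteins, and inhibitors of these enzymes change the transcription of many genes.

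All groups were differentiated HepaRG cells cultured for 7 days before an exposure of 72 h, with the chemical renewed each day. There was no untreated group, so each comparison set a concentration against the lowest one, C1, of the same chemical. From C1 to C5 the concentrations were 0.041722 to 0.86 µM for apicidin, 0.177222 to 3.9 µM for mocetinostat, 0.001468 to 0.084 µM for panobinostat, 4.94 to 94.5 µM for scriptaid, 1.143333 to 44 µM for tacedinaline, 0.018811 to 1.5237 µM for trichostatin A and 0.404778 to 23.5 µM for vorinostat. The dose labels of valproic acid ran from 100.478 to 3038, and their unit is open because the treatment protocol gives smaller numbers. Replicates 1, 2 and 3 were 3 batches of HepaRG cells, so p-values measure the spread between batches of 1 line. Each group had 3 libraries, except that batch 3 was missing from trichostatin A C4 and from panobinostat C3, which had 2. Scriptaid, tacedinaline and vorinostat are listed under plate E and the other chemicals under plate H, so each comparison with C1 lay within a plate label. The concentrations differ between chemicals, so values of different chemicals are given side by side and were not compared.

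Total counts of the 118 libraries ranged from 1061359 to 5250260. In vorinostat the mean total was 3038905 at C1 and 1485592 at C5, in scriptaid 3646506 and 2325353, and in tacedinaline 2950850 and 2110830. Low features were thus measured less precisely at C5 in these chemicals. The lowest C1 library of tacedinaline had 1243102 counts. Libraries standing furthest from their group mates by rank correlation over all features were scriptaid C4 replicate 3 (mean Spearman rho 0.815) and mocetinostat C2 replicate 3 (0.834). Mocetinostat C3 replicate 1 (0.894) and trichostatin A C1 replicate 3 (0.895), which is part of the reference group of its chemical, also stood apart. The hepatocyte markers fixed for the labelled cell type (12 features, among them ALB and APOA1) summed to 12909 to 63406 CPM (counts scaled to a common library size) in the C1 libraries. Markers of smooth muscle (MYH11, DES, SMTN, LMOD1, MYOCD) summed to at most 3.0 CPM there, and DES was at or below 3 counts in every library.

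The sequences before the start sites are shown for FLNA and CNN1, which moved in opposite directions in mocetinostat and tacedinaline, and for the actin genes ACTA2 and ACTG2, of which 1 was measured well and the other hardly at all. They are the 250 bases upstream of starts in RefSeq on GRCh38.p14, 5′ to 3′ on the strand of the gene. Capitals mark exact matches to the CArG box, the binding sequence of serum response factor, a regulator of smooth muscle genes, in which a pair of C and a pair of G enclose a run of A or T. The box reads the same kind of sequence on both strands. The ACTA2 window lies before the inner one of a pair of starts, within the annotated span of the gene, and the other windows end at the first base before their gene.
FLNA (chrX:154374635-154374884, minus strand): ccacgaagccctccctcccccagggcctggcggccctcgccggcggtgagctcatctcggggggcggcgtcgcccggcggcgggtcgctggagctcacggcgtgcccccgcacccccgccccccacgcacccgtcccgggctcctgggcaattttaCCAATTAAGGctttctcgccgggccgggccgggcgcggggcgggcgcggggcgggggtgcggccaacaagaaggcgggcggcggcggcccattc
CNN1 (chr19:11538601-11538850, plus strand): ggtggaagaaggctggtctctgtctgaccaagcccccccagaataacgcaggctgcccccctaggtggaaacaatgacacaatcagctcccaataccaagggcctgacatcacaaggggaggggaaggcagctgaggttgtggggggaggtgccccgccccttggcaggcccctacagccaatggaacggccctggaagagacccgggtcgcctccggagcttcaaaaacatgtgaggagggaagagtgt
ACTA2 (chr10:88952774-88953023, minus strand): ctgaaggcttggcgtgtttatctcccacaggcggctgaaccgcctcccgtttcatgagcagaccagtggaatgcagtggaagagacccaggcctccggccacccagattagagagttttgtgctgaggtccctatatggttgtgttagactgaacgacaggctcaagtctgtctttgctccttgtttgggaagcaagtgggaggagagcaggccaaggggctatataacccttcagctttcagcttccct
ACTG2 (chr2:73892758-73893007, plus strand): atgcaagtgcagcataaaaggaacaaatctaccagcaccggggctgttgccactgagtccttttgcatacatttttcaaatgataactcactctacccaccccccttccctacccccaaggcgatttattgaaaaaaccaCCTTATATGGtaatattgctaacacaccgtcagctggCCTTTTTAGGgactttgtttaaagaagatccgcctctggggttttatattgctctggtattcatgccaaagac
FLNA held 1 match, starting at position -94, and ACTG2 held 2, at -110 and -73. No exact match was found in the windows of CNN1, ACTA2, GSN (6 starts), TPM1 or TPM2. Of 35116 windows of this length over all genes, 1.16% held a match. The table used had 14 entries for 7 of the genes and none for TAGLN, MYL9 and VIL1. A match is a description of letters, and no match says only that these letters are not in this window. Variants with another letter in the run of A or T, as the ACTA2 window holds, were not searched for.

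At the highest concentration GSN and ACTA2 fell in 7 of the 8 chemicals, TPM2 in 6, VIL1 in 5, FLNA in 3 and TPM1 in 2. Called rises were those of CNN1 in mocetinostat and tacedinaline and of TPM1 in apicidin, and TAGLN had no call. Of the 12 features, 8 passed the filter on low counts in at least 1 chemical. GSN, VIL1, FLNA, ACTA2, TPM2 and 1 probe of TPM1 were tested in all 8 chemicals, TAGLN in 6 and CNN1 in 2. A feature was called when edgeR's quasi-likelihood test gave a Benjamini-Hochberg adjusted p under 0.05 over all features tested and the fold change was at least 1.5. Of 56 results tested at C5, 33 were called, where 11.6% of 101732 tests over all features gave a called rise and 13.4% a called fall. Of the 33, 24 were also called with the batch as a block, for which the share of all features is not reported here. CNN1 passed the filter in mocetinostat and tacedinaline only through the groups in which it was high, so its 2 calls are no more than a description of those levels. They are included in the counts of tested and called members here and below, to which CNN1 lends no support.

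In mocetinostat 7 of 8 tested features, CNN1 included, were called at C5, beside 30.5% of all features tested. In tacedinaline it was 5 of 7, again with CNN1, beside 38.8%. In panobinostat it was 5 of 7 beside 16.2%, and in vorinostat 5 of 6 beside 47.5%. In scriptaid 4 of 7 were called beside 29.8%, which became 2 with the batch as a block. In valproic acid 4 of 7 were called beside 11.1% (1 with the block), and in apicidin 3 of 7 beside 28.8% (1 with the block). In trichostatin A 0 of 7 were called beside 0.0154%, where edgeR called 2 features in all. FLNA and TPM2 had an unadjusted p under 0.05 in edgeR there, and DESeq2 called 1 of the 7, FLNA. The median log2 change of the tested members lay between -1.93 in mocetinostat and -0.26 in trichostatin A, while the median over all features lay between -0.0018 and 0.08.

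**Figure D1:**
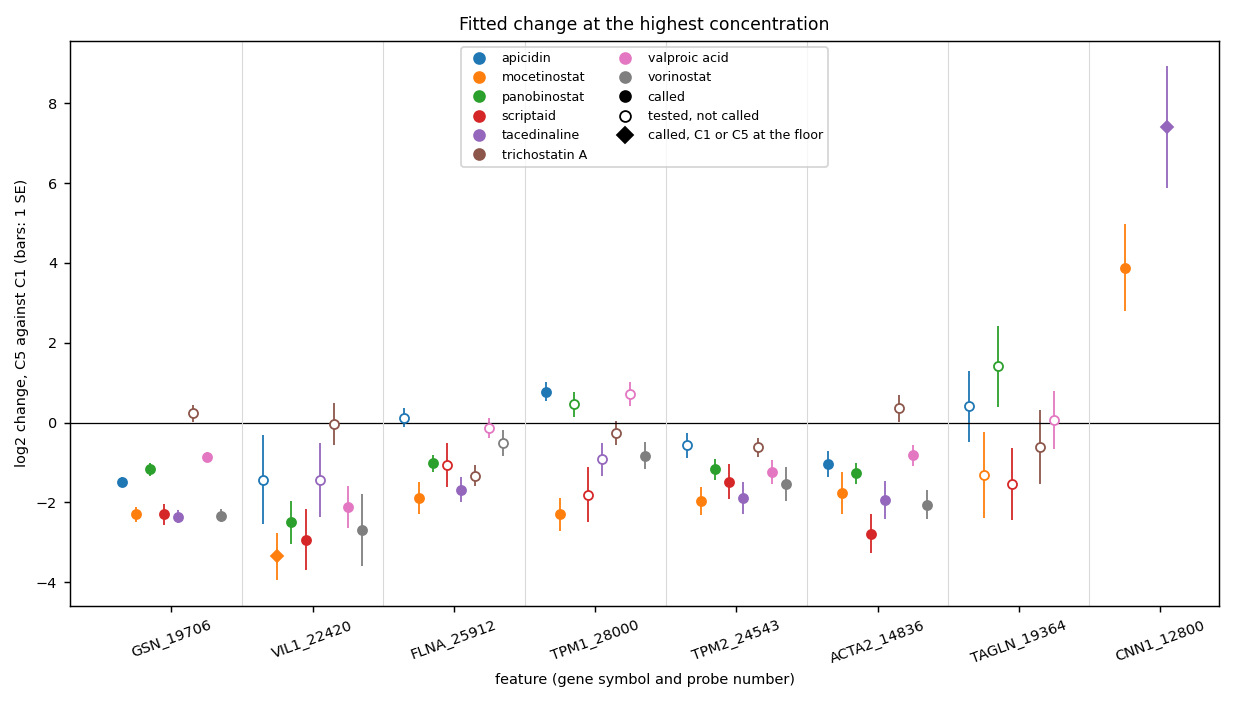
Fitted log2 change from C1 to C5 (y axis, bars show 1 SE) for the 8 features that were tested (x axis), with a colour for each chemical. Filled symbols are called changes, open symbols were tested and not called, and diamonds mark called changes for which C1 or C5 lay at or under 3 counts in every library. GSN lies between -2.36 and -0.86 in every chemical but trichostatin A, and CNN1 is the only feature with called rises above 3.

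GSN, whose product cuts and caps actin filaments and also circulates in plasma, fell at C5 in 7 of the 8 chemicals. In apicidin GSN measured 515, 459 and 493 CPM at C1 and 158, 175 and 184 CPM at C5. In mocetinostat it went from 405, 456 and 454 CPM to 95.3, 78.2 and 78.4 CPM. In vorinostat it went from 478, 497 and 487 CPM to 93.9, 80.0 and 96.7 CPM. All libraries of C5 lay far below those of C1 in these chemicals, and the batches differed little.

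In scriptaid GSN was at 432, 514 and 458 CPM at C1 and at 85.7, 96.5 and 88.2 CPM at C5. In tacedinaline it was at 373, 410 and 455 CPM and then at 85.6, 65.0 and 80.2 CPM. In panobinostat it was at 522, 449 and 422 CPM and then at 218, 180 and 226 CPM. The groups did not overlap in any of these. In valproic acid GSN was at 366, 364 and 429 CPM at C1 and at 230, 206 and 196 CPM at C5, again with no overlap. In trichostatin A it was at 464, 488 and 222 CPM at C1 and at 472, 411 and 483 CPM at C5. There the low value at C1 came from replicate 3, the library that stood apart, and the other libraries overlapped.

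The log2 changes of GSN at C5 were -2.36 ± 0.16 (SE, n = 3 per group, edgeR adjusted p = 3.1e-16) in tacedinaline, -2.33 ± 0.16 (adjusted p = 6.65e-14) in vorinostat and -2.30 ± 0.18 (adjusted p = 1.47e-07) in mocetinostat. They were -2.30 ± 0.26 (adjusted p = 3.63e-06) in scriptaid and -1.49 ± 0.13 (adjusted p = 4.64e-08) in apicidin. The smallest called changes were -1.17 ± 0.16 (adjusted p = 2.03e-05) in panobinostat and -0.86 ± 0.13 (adjusted p = 0.000121) in valproic acid. In trichostatin A the value was 0.23 ± 0.22 (adjusted p = 0.786), and -0.06 without C1 replicate 3. The 7 calls were kept in every alternative that was run, the batch block, the lower depth and the removal of any batch included.

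GSN was called at lower concentrations as well. At C3 it was called in 5 chemicals, with log2 changes of -1.65 in mocetinostat, -1.45 in tacedinaline, -1.23 in apicidin, -1.10 in vorinostat and -1.06 in scriptaid. The scriptaid call at C3 was lost with the batch as a block (adjusted p = 0.508). At C4 panobinostat (-0.61, lost with the block at adjusted p = 0.234) and valproic acid (-0.92) were called too. In valproic acid the C4 libraries were at 187, 215 and 206 CPM, a range that overlapped that of C5.

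**Figure D2:**
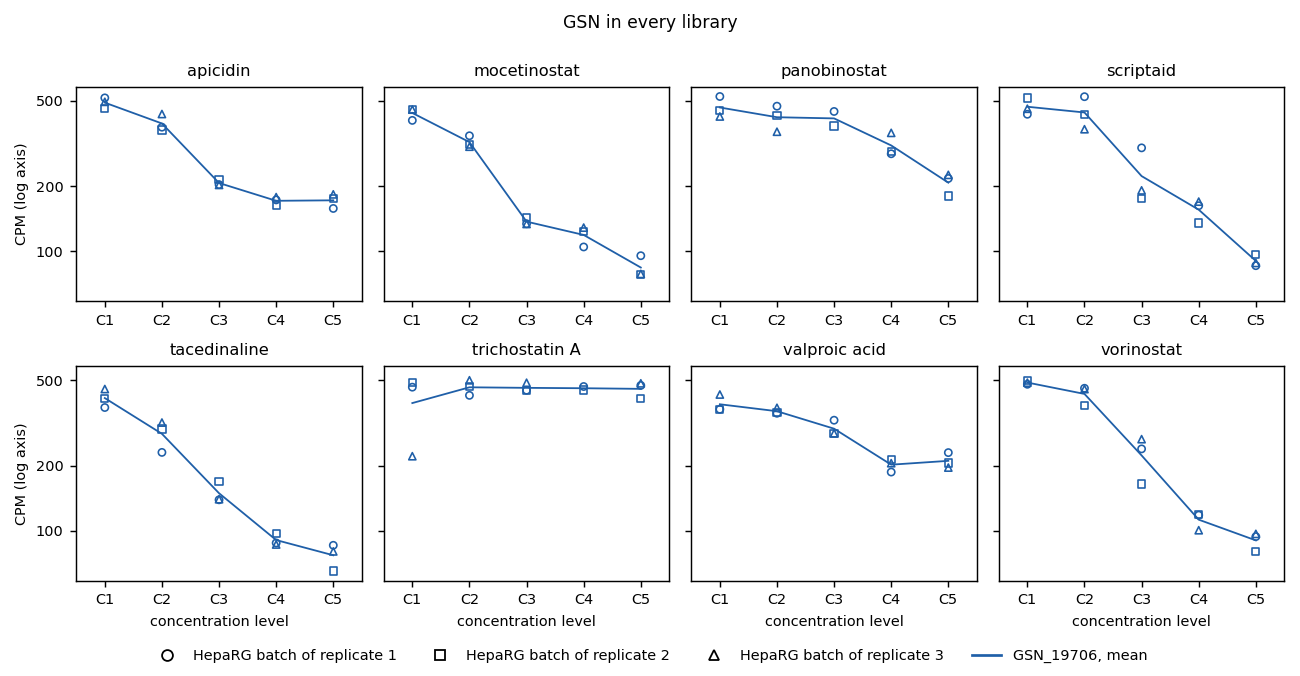
GSN level in CPM (log y axis) in each library at C1 to C5 (x axis), in a panel per chemical. Symbols show the 3 HepaRG batches and lines join the group means. The batches lie close together in most groups, less so at C3 in scriptaid (302, 176 and 192 CPM) and vorinostat (240, 165 and 266 CPM), and the C1 library of batch 3 in the trichostatin A panel lies alone at 222 CPM.

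Markers of hepatocytes moved together with GSN. Of 96 tests of hepatocyte marker features at C5, 80 gave a called fall and 0 a called rise, where 13.4% and 11.6% of the tests over all features did. CYP3A4 and FABP1 had a pair of probes each among these features, so the tests are not all of separate genes. In the 7 chemicals in which GSN fell, the summed level of these markers ranged from 35362 to 63406 CPM at C1 and from 2856 to 28393 CPM at C5. In trichostatin A it ranged from 12909 to 53649 CPM at C1, with the lowest value in replicate 3, and from 35746 to 45415 CPM at C5. The part of this movement in the GSN result was not tested. In lysates of whole wells, fewer cells of a type and less RNA per cell cannot be told apart, for GSN or any other gene here.

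VIL1, the villin of microvilli and, in hepatocytes, of the bile canaliculus, is related to gelsolin and was measured with few counts. It fell at C5 in 5 chemicals. In mocetinostat VIL1 was at 12.1, 5.21 and 7.27 CPM at C1 and at 0.773, 0.513 and 0.909 CPM at C5, where all 3 libraries had 2 or 3 counts. Set against 3 counts per library at C5, the C1 mean was 10.0-fold higher, and the fall was called (edgeR adjusted p = 0.000435). With 2 or 3 counts observed at C5, this ratio is an estimate and no lower bound. In panobinostat it was at 13.0, 8.12 and 18.6 CPM and then at 2.80, 1.21 and 3.01 CPM. No C5 library of these chemicals reached its C1 group.

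In vorinostat VIL1 was at 6.14, 11.3 and 7.77 CPM at C1 and at 0, 0.471 and 2.95 CPM at C5. In valproic acid it was at 11.4, 13.1 and 13.1 CPM and then at 2.11, 2.61 and 3.95 CPM. In scriptaid it was at 15.8, 8.40 and 12.2 CPM and then at 0.840, 3.12 and 0 CPM. These groups did not overlap either, but with 0 to 14 counts at C5 their spread was wide. The log2 changes were -2.50 ± 0.53 in panobinostat (adjusted p = 0.00202), -2.94 ± 0.76 in scriptaid (adjusted p = 0.00679), -2.11 ± 0.54 in valproic acid (adjusted p = 0.0113) and -2.69 ± 0.91 in vorinostat (adjusted p = 0.0132). With the batch as a block the calls of scriptaid (adjusted p = 0.0993) and valproic acid (adjusted p = 0.148) were lost. Calls were also lost without replicate 1 in scriptaid, and without replicate 1 or 2 in valproic acid and vorinostat, with adjusted p from 0.06 to 0.17. Thinning ended the calls of mocetinostat, panobinostat, scriptaid and valproic acid (adjusted p from 0.0604 to 0.495).

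In apicidin VIL1 was low at C1 already, at 3.14, 3.32 and 2.45 CPM at C1 and at 0.261, 2.69 and 0.249 CPM at C5 (adjusted p = 0.359). In tacedinaline it was at 7.58, 3.26 and 3.90 CPM and then at 0, 4.45 and 0 CPM (adjusted p = 0.221), and without replicate 2 the fall was called (adjusted p = 0.00747). Both groups overlapped. In trichostatin A VIL1 was at 16.7, 10.8 and 1.19 CPM at C1, with replicate 3 the low one, and at 9.34, 8.41 and 10.4 CPM at C5 (adjusted p = 0.994).

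FLNA, the filamin that holds actin filaments in networks and anchors them at the membrane, fell at C5 in 3 chemicals. In mocetinostat FLNA was at 74.6, 50.5 and 68.6 CPM at C1 and at 11.3, 17.7 and 20.3 CPM at C5 (log2 change -1.89 ± 0.39, adjusted p = 0.00164). In tacedinaline it was at 47.1, 37.3 and 55.9 CPM and then at 16.3, 17.5 and 7.73 CPM (-1.68 ± 0.32, adjusted p = 3.98e-05). In panobinostat it was at 53.8, 46.1 and 46.6 CPM and then at 25.5, 22.3 and 25.2 CPM (-1.02 ± 0.22, adjusted p = 0.00218). The groups were apart in all 3, and the calls stood with the batch as a block, while that of panobinostat was lost without replicate 1 (adjusted p = 0.0606). After thinning to the lowest total the calls of mocetinostat (adjusted p = 0.0935) and panobinostat (adjusted p = 0.399) were lost. In mocetinostat and tacedinaline FLNA was already called at C3 (-1.40 and -1.23), and both of these calls were lost with the block (adjusted p = 0.0683 and 0.17). The C3 libraries of mocetinostat were at 9.64, 37.2 and 24.7 CPM, the lowest being replicate 1, which stood apart, and without that batch the change was -0.96 (adjusted p = 0.151). This C3 call was lost without either of the other batches too (adjusted p = 0.072 and 0.127), and after thinning (adjusted p = 0.15).

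FLNA was the member nearest to a call in trichostatin A. There it was at 50.5, 50.8 and 77.9 CPM at C1 and at 19.8, 21.8 and 28.9 CPM at C5, with no overlap (log2 change -1.33 ± 0.26, edgeR adjusted p = 0.0926). The fall was called by DESeq2 (adjusted p = 0.00241) and without the filter on low counts (adjusted p = 0.000971). It was also called without C1 replicate 3, the library that stood apart (-1.10, adjusted p = 0.0392). With the batch as a block or with RLE size factors it was not called at C5. By trend it was called as well (-1.23, adjusted p = 0.0399), and that call was lost with the block (adjusted p = 0.0885).

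In scriptaid FLNA was at 37.1, 29.3 and 27.0 CPM at C1 and at 11.8, 6.53 and 24.8 CPM at C5 (-1.07 ± 0.55, adjusted p = 0.152). Without C4 replicate 3, the library with 2.19 CPM beside 25.1 and 25.2 CPM, the fall at C5 was called (-1.09, adjusted p = 0.0164). In apicidin, valproic acid and vorinostat the log2 changes were 0.12, -0.15 and -0.51 with overlapping groups. In vorinostat the C5 libraries were at 39.2, 10.4 and 20.04 CPM, and without replicate 1 the fall was called (adjusted p = 0.0307).

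The tropomyosins TPM1 and TPM2, which stabilise filaments and set which proteins reach them, went different ways in some chemicals. TPM2 fell at C5 in 6 chemicals. In mocetinostat TPM2 was at 70.6, 46.2 and 51.7 CPM at C1 and at 16.7, 12.8 and 10.9 CPM at C5 (-1.97 ± 0.35, adjusted p = 0.000406). In tacedinaline it was at 41.3, 42.6 and 28.3 CPM and then at 13.8, 6.50 and 8.55 CPM (-1.89 ± 0.40, adjusted p = 0.000145). In vorinostat it was at 26.8, 26.4 and 26.1 CPM and then at 4.90, 12.2 and 7.07 CPM (-1.54 ± 0.43, adjusted p = 0.00302). These 3 falls were called in every alternative that was run.

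In panobinostat TPM2 was at 42.9, 35.9 and 43.1 CPM at C1 and at 15.7, 26.2 and 12.6 CPM at C5 (-1.17 ± 0.27, adjusted p = 0.00366). In scriptaid it was at 38.1, 20.9 and 22.1 CPM and then at 8.82, 6.24 and 12.9 CPM (-1.48 ± 0.44, adjusted p = 0.0162). In valproic acid it was at 48.0, 34.5 and 35.2 CPM and then at 24.0, 16.6 and 8.46 CPM (-1.24 ± 0.29, adjusted p = 0.00687). No C5 library of these reached its C1 group, but the calls were less stable. The block removed those of scriptaid (adjusted p = 0.132) and valproic acid (adjusted p = 0.11). Leaving out replicate 1 or 3 removed that of panobinostat, replicate 1 or 2 that of scriptaid and replicate 2 that of valproic acid, with adjusted p from 0.0604 to 0.229, and thinning those of panobinostat (adjusted p = 0.222) and scriptaid (adjusted p = 0.12).

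In apicidin TPM2 was at 24.1, 23.2 and 19.3 CPM at C1 and at 21.7, 10.5 and 12.4 CPM at C5 (-0.57, adjusted p = 0.185), and the groups overlapped. By trend the fall was called (-0.77, adjusted p = 0.0331). In trichostatin A it was at 48.9, 45.3 and 46.5 CPM and then at 42.2, 25.8 and 22.3 CPM, which did not overlap and was not called (-0.62, adjusted p = 0.47).

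The main TPM1 probe, TPM1_28000, rose in apicidin. TPM1 was at 21.2, 19.2 and 19.6 CPM at C1 there, at 36.7, 50.4 and 33.0 CPM at C3, at 50.1, 54.0 and 32.3 CPM at C4 and at 38.9, 31.0 and 31.8 CPM at C5. Every library from C2 on lay above every C1 library. The log2 change was 1.01 at C3 (adjusted p = 0.00595), 1.20 at C4 (adjusted p = 0.00103) and 0.77 ± 0.24 at C5 (adjusted p = 0.0187). The calls at C3 and C5 were lost with the block (adjusted p = 0.0511 and 0.0761), the C5 call also without any 1 batch (adjusted p from 0.0781 to 0.0976), and the call at C4 was kept with it (adjusted p = 0.0114). Over these concentrations TPM2 was not higher than at C1 in any group mean from C3 on.

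In mocetinostat TPM1 fell, from 28.7, 28.3 and 20.7 CPM at C1 to 5.67, 5.13 and 3.94 CPM at C5 (-2.30 ± 0.42, adjusted p = 0.000624), and this call was kept in every alternative that was run. In vorinostat it was at 20.7, 23.2 and 28.3 CPM at C1, at 38.5, 27.6 and 26.3 CPM at C4 and at 13.9, 16.5 and 7.07 CPM at C5. The fall at C5 (-0.84 ± 0.34, adjusted p = 0.0372) was lost with the block (adjusted p = 0.117) and without replicate 1 or 3 (adjusted p = 0.0622 and 0.388). Thinning also ended this call (adjusted p = 0.188) and that of apicidin at C5 (adjusted p = 0.105). In tacedinaline the level was at 21.0, 24.0 and 9.76 CPM at C1, at 3.49, 5.99 and 5.99 CPM at C4 and at 9.89, 11.3 and 5.70 CPM at C5. There the fall was called at C4 (-1.72, adjusted p = 0.00102) and not at C5 (-0.92, adjusted p = 0.0639), where the groups overlapped.

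In scriptaid TPM1 was at 14.6, 22.1 and 22.7 CPM at C1 and at 4.62, 10.2 and 0.477 CPM at C5 (-1.81 ± 0.68, adjusted p = 0.0534). The C4 libraries were at 6.48, 8.40 and 40.1 CPM, the last being the library that stood apart, and without it the fall at C5 was called (-1.81, adjusted p = 0.00477). In valproic acid TPM1 was at 11.0, 16.8 and 16.0 CPM and then at 21.1, 23.2 and 27.1 CPM, with no overlap and no call (0.72, adjusted p = 0.125). In panobinostat (0.46, adjusted p = 0.359) and trichostatin A (-0.26, adjusted p = 0.844) the groups overlapped. The other TPM1 probe, TPM1_7295, had at most 10 counts and 0 counts in 89 libraries, and was not tested in any chemical. Which transcripts the probes target is not given in the sources used here.

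**Figure D3:**
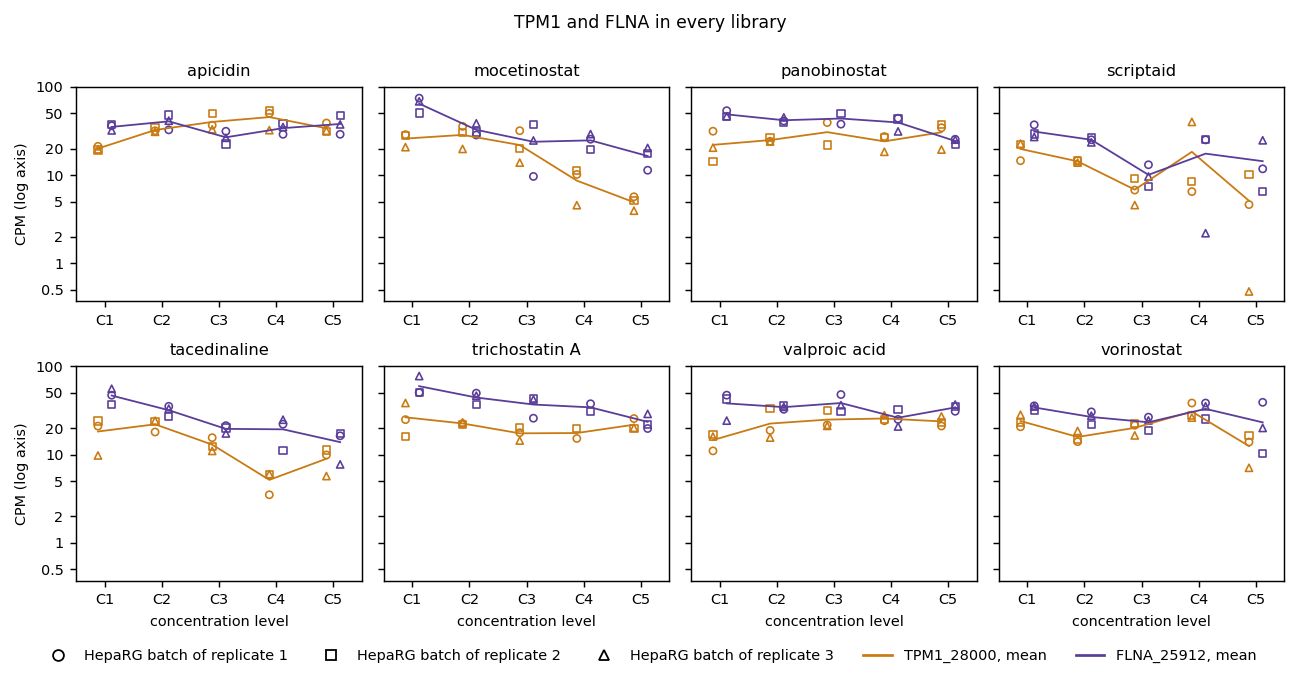
TPM1 (probe TPM1_28000) and FLNA in CPM (log y axis) in each library at C1 to C5 (x axis), in a panel per chemical. Symbols show the HepaRG batches and lines join group means. TPM1 is above its C1 level from C2 on in apicidin and far below it at C5 in mocetinostat, and the C4 library of batch 3 in scriptaid lies apart, with TPM1 at 40.1 CPM and FLNA at 2.19 CPM.

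ACTA2, the actin isoform of smooth muscle and of activated stellate cells, fell at C5 in 7 chemicals. In scriptaid ACTA2 was at 39.6, 35.0 and 32.6 CPM at C1 and at 2.10, 9.37 and 2.38 CPM at C5 (-2.79 ± 0.49, adjusted p = 0.000334). In vorinostat it was at 34.1, 34.2 and 37.9 CPM and then at 13.1, 4.71 and 7.07 CPM (-2.06 ± 0.36, adjusted p = 1.58e-05). In tacedinaline it was at 26.9, 21.9 and 36.8 CPM and then at 13.4, 3.42 and 5.29 CPM (-1.93 ± 0.48, adjusted p = 0.00104). No library of C5 reached the C1 group, and the calls of these 3 chemicals stood with the block and without any 1 batch.

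In panobinostat ACTA2 was at 40.1, 41.9 and 46.6 CPM at C1 and at 17.1, 22.8 and 13.7 CPM at C5 (-1.27 ± 0.26, adjusted p = 0.00126). In mocetinostat it was at 26.4, 23.1 and 31.0 CPM and then at 11.6, 8.46 and 1.82 CPM (-1.77 ± 0.53, adjusted p = 0.0174). In apicidin it was at 26.4, 28.9 and 29.7 CPM and then at 9.15, 20.8 and 10.9 CPM (-1.04 ± 0.32, adjusted p = 0.016). Groups were again apart, with a wide spread at C5 in mocetinostat and apicidin. In valproic acid ACTA2 was at 32.2, 33.6 and 38.6 CPM and then at 19.2, 24.2 and 15.2 CPM (-0.82 ± 0.26, adjusted p = 0.042).

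With the batch as a block the calls of apicidin (adjusted p = 0.0748), mocetinostat (adjusted p = 0.155) and valproic acid (adjusted p = 0.155) were lost, and with it all 7 trend calls were kept. Calls were also lost without replicate 1 or 3 in apicidin, 2 or 3 in mocetinostat, 3 in panobinostat, and any of the 3 in valproic acid, with adjusted p from 0.0594 to 0.26. Thinning ended all of them but those of scriptaid and vorinostat (adjusted p from 0.0601 to 0.305). In trichostatin A ACTA2 was at 52.9, 31.4 and 13.4 CPM at C1 and at 43.5, 39.2 and 41.9 CPM at C5 (0.35, adjusted p = 0.794, and -0.03 without C1 replicate 3).

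**Figure D4:**
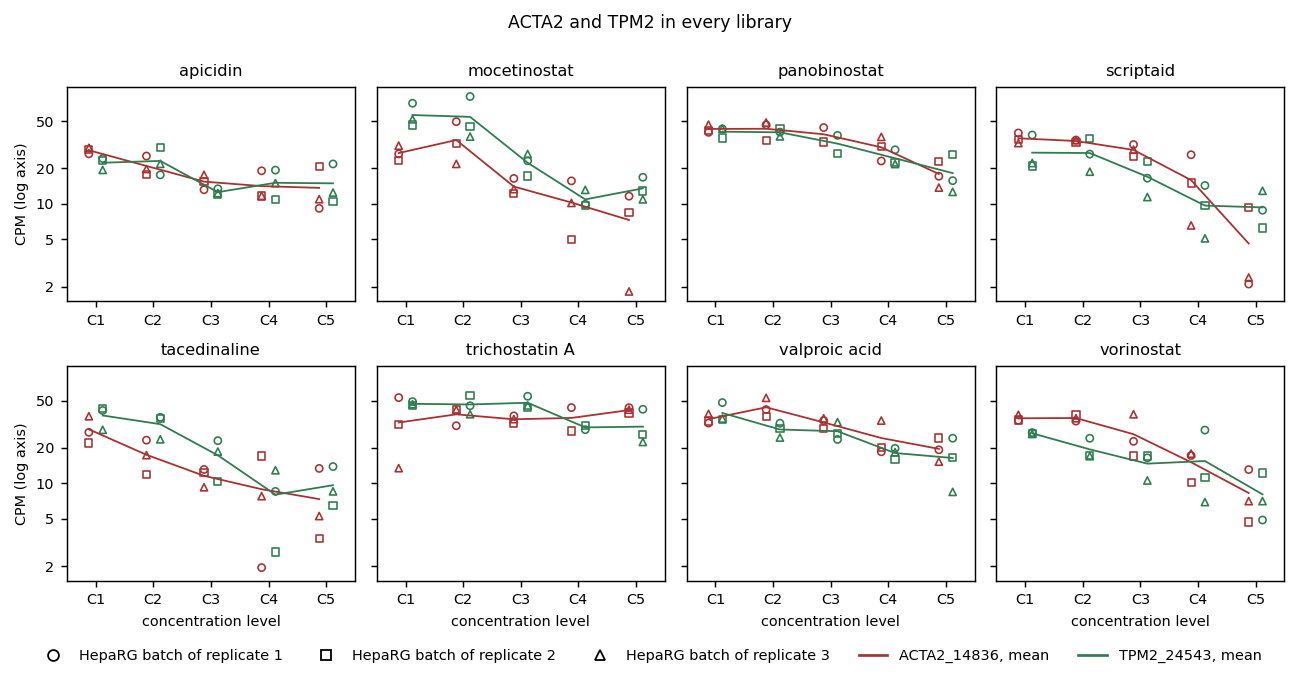
ACTA2 and TPM2 in CPM (log y axis) in each library at C1 to C5 (x axis), in a panel per chemical. Symbols show the HepaRG batches and lines join group means. Both fall with concentration in most panels, and in trichostatin A the ACTA2 library of batch 3 at C1 lies at 13.4 CPM, below the others.

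Markers of stellate cells and fibroblasts gave more called falls than rises beside ACTA2. Of 59 tests of their 14 features at C5, 20 gave a called fall and 8 a called rise, 6 of them of COL1A1, where 13.4% and 11.6% of the tests over all features did. THY1 was at or under 3 counts in all libraries. COL3A1, a fibrillar collagen, fell in 7 chemicals (log2 changes from -3.73 to -1.47 over the 8), and COL1A1 rose in 6 (from -0.90 to 3.04). Of the decorin probes, DCN_27098 fell in 6 chemicals, trichostatin A among them, DCN_1779 in 3 and DCN_27099 in 1. LUM fell in 3 chemicals and rose in 1, and PDGFRB fell in 0 and rose in 1. All called falls of the list came from COL3A1, DCN and LUM. The summed level of the list over the 7 chemicals in which ACTA2 fell ranged from 142.0 to 273 CPM at C1 and from 93.3 to 213 CPM at C5. Its part in the ACTA2 result was not tested. ACTA2 and ACTG2 code for nearly the same protein, and without probe sequences it was not checked whether a probe can pick up both transcripts.

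CNN1, the calponin that binds actin and damps the contractile motor, was near 0 in most libraries and rose in mocetinostat and tacedinaline. It had 0 counts in 74 of the 118 libraries. In mocetinostat CNN1 had 9, 0 and 0 counts at C1, 4, 0 and 0 at C2, 16, 23 and 16 at C3, 35, 11 and 32 at C4 and 59, 22 and 42 at C5. From C3 on every library lay above every C1 library. The log2 change was 3.16 at C4 (adjusted p = 0.044) and 3.88 ± 1.09 at C5 (adjusted p = 0.0127), and the C5 call was lost without replicate 2 or 3 (adjusted p = 0.0783 and 0.0823) and after thinning to the lowest total (adjusted p = 0.0996). The size of the change rests on the 1 library of C1 that had counts, that of replicate 1. The fitted value was 6.05 in the fit that blocks on batch, and 8.18 when replicate 1 was left out and C1 held 0 counts only, which is no measure of size.

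In tacedinaline CNN1 had 0 counts in all libraries of C1 and C2, 2, 0 and 0 counts at C3, 5, 38 and 14 at C4 and 17, 11 and 23 at C5. Against the floor of 3 counts per library it was at least 3.68-fold higher at C4 (adjusted p = 0.000449) and at least 5.19-fold higher at C5 (adjusted p = 0.00013). In scriptaid it had 1, 0 and 0 counts at C1 and 9, 10 and 11 at C5, which is at least 4.70-fold higher, with at most 2 counts in between. The feature did not pass the filter in scriptaid. With no filter the rise was not called (adjusted p = 0.0836). A filter at 1 CPM in 3 libraries, under which the rise was called (adjusted p = 0.0277), was passed only through the C5 group, so that call is no more than a description.

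In the other 5 chemicals CNN1 showed scattered counts. The groups with the highest single counts were 7, 0 and 7 at C3 (beside 7, 0 and 0 at C1) in apicidin, 10, 0 and 0 at C5 and 5, 0 and 9 at C3 in valproic acid, and 0, 7 and 1 at C5 in vorinostat. In panobinostat they were 4 and 8 at C3 and 0, 6 and 0 at C2, and in trichostatin A 8, 1 and 1 at C1. At C1 the counts above 1 were those of batch 1 in 3 chemicals. Panobinostat and trichostatin A had at most 1 count in any C5 library.

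**Figure D5:**
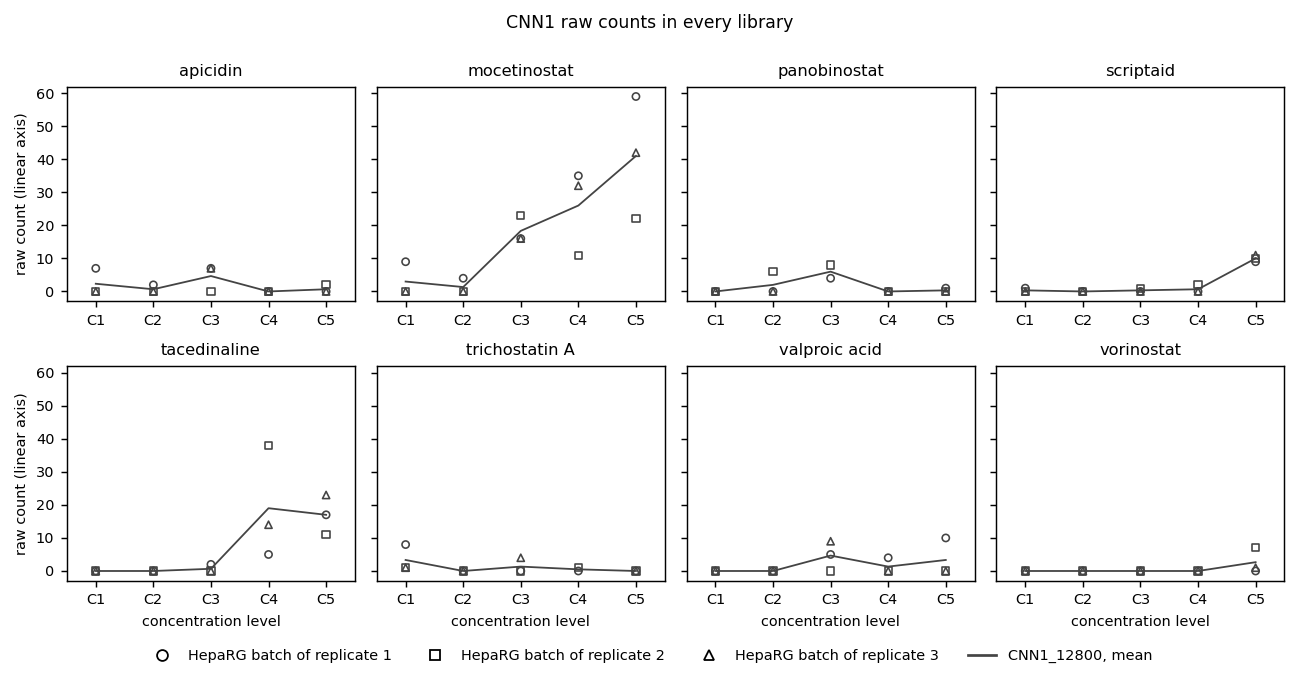
Raw counts of CNN1 (linear y axis) in each library at C1 to C5 (x axis), in a panel per chemical, with symbols for the HepaRG batches and lines through group means. Counts climb from C3 in mocetinostat and from C4 in tacedinaline, reach 9 to 11 at C5 in scriptaid, and stay at or below 10 in the other 5 chemicals.

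Other smooth muscle markers had low counts of the same order as CNN1 at C5 in tacedinaline and scriptaid, and lower ones in mocetinostat. In tacedinaline their summed level was 0 to 0.8 CPM at C1 and 3.3 to 7.9 CPM at C5, with 4 to 14 counts of SMTN and 3 to 5 counts of MYOCD per library at C5. In scriptaid it was 0 to 2.0 CPM and 2.1 to 3.1 CPM, with 5 to 11 counts of SMTN at C5, and in mocetinostat 0.7 to 2.4 CPM and 0.3 to 1.8 CPM. In vorinostat, where CNN1 had 0 to 7 counts at C5 and was not tested, the sum was 0 CPM at C1 and 0.8 to 5.2 CPM at C5. SMTN had 0 to 7 counts and MYOCD 0 to 11 counts per library at C5 there. MYH11, the heavy chain of smooth muscle myosin, had at most 10 counts in any library and DES and LMOD1 were at 0 in 116 and 108 libraries. The part of other cells in the CNN1 result was not tested.

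TAGLN, an actin-bundling protein of smooth muscle, had 0 to 25 counts per library and no call in the 6 chemicals in which it was tested, and its unadjusted p in edgeR was above 0.05 in all of them at C5. Its log2 changes at C5 ran from -1.54 ± 0.91 in scriptaid (24, 23 and 1 counts at C1 and 6, 3 and 2 at C5) to 1.41 ± 1.02 in panobinostat (10, 4 and 1 counts and then 11, 17 and 8). With standard errors of 0.74 to 1.07 a change of 1.5-fold was not detectable at this depth. In the chemicals where TAGLN was not tested it had 0, 13 and 8 counts at C1 and 6, 7 and 2 at C5 in tacedinaline, and 7, 17 and 14 and then 1, 6 and 2 in vorinostat.

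MYL9 and both ACTG2 probes were at or near 0 and were tested in no chemical. MYL9, a light chain that switches myosin on when phosphorylated, had 0 counts in 101 libraries and at most 7. The probe ACTG2_24661 had at most 2 counts, and ACTG2_28389 had 0 counts in 101 libraries and at most 7, the highest in mocetinostat C5 (4, 7 and 0). A count of 0 in a library allows up to 3 counts. Most of these few counts lay in libraries that also had CNN1 counts. Of 17 libraries with MYL9 counts 15 also had CNN1 counts, and 16 of 17 did for ACTG2_28389, where 37.3% of all libraries had any. For the low TPM1 probe it was 8 of 29.

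Across the lower concentrations calls of the members built up in steps. At C2 no member was called in any chemical by edgeR or DESeq2. The share of all features called was 0.385% in tacedinaline, 0.191% in mocetinostat, 0.102% in apicidin, 0.0172% in vorinostat and 0% in the other 4. In edgeR 6 of 56 member results at C2 had an unadjusted p under 0.05. That threshold is looser than a call, so these shares cannot be set against it, and the share of all features under it is not reported here. At C3 there were 3 calls in mocetinostat beside 11.6% of all features, 2 each in apicidin (15.3%) and tacedinaline (11.9%), and 1 each in vorinostat (7.06%) and scriptaid (1.34%). Panobinostat (0.00763%) and valproic acid (1.13%) had 0 at C3 by either tool, with 0 and 3 results at an unadjusted p under 0.05. At C4 there were 6 each in mocetinostat (23.7%) and tacedinaline (32.8%), CNN1 included in both. There were 3 each in apicidin (22.3%) and vorinostat (32.3%), 2 each in valproic acid (11.9%) and scriptaid (4.87%), and 1 in panobinostat (2.56%). Trichostatin A had 0 at either level by either tool, beside 0% of all features, with FLNA at C3 and FLNA and TPM2 at C4 at an unadjusted p under 0.05. With the batch as a block the counts at C3 became 1 in apicidin, mocetinostat and tacedinaline, 0 in scriptaid and 2 in vorinostat, and at C4 they became 2 in apicidin and vorinostat, 5 in mocetinostat, 4 in tacedinaline, 1 in scriptaid and valproic acid and 0 in panobinostat.

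A slope over all 5 concentrations gave calls for 7 features in mocetinostat (35.6% of all features called by trend), 6 in tacedinaline (43.3%), 5 in panobinostat (17.4%), 4 each in apicidin (34.4%), scriptaid (13%), valproic acid (14.9%) and vorinostat (47.4%), and 1 in trichostatin A (0.0616%). CNN1 is included in the trend counts of mocetinostat and tacedinaline. GSN, ACTA2 and TPM2 were called as falling by trend in 7 chemicals each and VIL1 in 5. The fitted change from C1 to C5 ran from -2.60 in vorinostat to -0.95 in valproic acid for GSN, and from -2.49 in mocetinostat to -0.77 in apicidin for TPM2. None of the features tested, 11631 to 13104 per chemical, had a slope that differed between the HepaRG batches at an adjusted p under 0.05 in any chemical. In this F test of slope by batch, the unadjusted p was 0.0328 for TAGLN in apicidin and 0.0336 for CNN1 in mocetinostat. With few libraries per slope the test can miss differences, so it does not show that the batches responded alike.

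The levels of the members varied together to different degrees over the 40 groups. Pearson's r of the group means of log2 CPM was 0.93 for GSN and ACTA2, 0.85 for GSN and TPM2, and 0.84 for GSN and VIL1. The lowest value was that of TPM1 and VIL1 (0.26), and TPM1 had 0.47 with TPM2, 0.51 with GSN and 0.69 with FLNA. These are descriptions over groups that share chemicals, batches and depth, and groups of a chemical are not independent. Groups of plates E and H were pooled, here and in the likeness below.

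Among 11288 features tested in all 8 chemicals, those most like GSN over the 40 groups were GBP3_16959 (r = 0.98), a guanylate-binding protein, and EHHADH_17577 (r = 0.98), an enzyme of peroxisomal fatty acid oxidation. For ACTA2 they were ANXA8L1_19389 and SOX6_24527 (both r = 0.96). For TPM2 they were the liver acute-phase genes CFB_872 (r = 0.93) and ORM2_4836 (r = 0.91), and for VIL1 EMP3_18953 (r = 0.93) and SERPINF2_19344 (r = 0.92). For TPM1 they were CALD1_18940 (r = 0.90), which codes for the actin-binding caldesmon, and ZNF415_28112 (r = 0.83). FLNA had the weakest likeness, with SEC24D_90088 and STEAP3_11218 (both r = 0.81).

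Other genes of the actin cytoskeleton showed no common direction at C5. Over the 8 chemicals and all features, 11.6% of 101732 tests gave a called rise and 13.4% a called fall. Of 85 tests of other smooth muscle contractile genes, 9 gave a rise and 9 a fall, and their median log2 change per chemical lay between -0.37 and 0.37. MYLK, the kinase that phosphorylates myosin light chains, fell in 5 chemicals (log2 change from -3.51 to -0.05 over the 8), CALD1 fell in 3 (from -0.99 to 0.32), and MYL12B, a non-muscle light chain, rose in 5 (from 0.02 to 1.08).

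Of 72 tests of actin cross-linkers and bundlers, 9 gave a rise and 5 a fall. ESPN, an espin of microvilli, fell in 3 chemicals (from -1.91 to 0.46). Of 114 tests of gelsolin relatives and of severing, capping and monomer-binding proteins, 5 gave a rise and 12 a fall. Profilin PFN1 made up 6 of these falls (from -1.96 to 0.08) and AVIL, a villin relative, 3 (from -1.45 to 0.81). SCIN, the gelsolin relative scinderin, rose in 2 chemicals and fell in 1.

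Of 70 tests of serum response factor, its coactivators and known targets, 14 gave a rise and 5 a fall. CCN2 (from 0.30 to 2.53) and CCN1 (from -0.35 to 2.98), which code for secreted matrix-associated proteins, rose in 5 chemicals each, and vinculin, VCL (from -0.29 to 0.84), rose in 4. Of the other actins, ACTB alone was tested, and it fell in 2 chemicals (from -1.43 to -0.20). No list was tested as a set. Of the remaining cell type markers, those of biliary or progenitor cells rose in 11 of 33 tests and fell in 0, and those of immune cells fell in 1 of 8. Markers of endothelial cells and of smooth muscle had no call in 2 tests and 1 test.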

How the data were processed

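Whole transcriptome TempO-Seq, which counts ligated probe pairs, had been run on cell lysates. The authors deposited raw counts of reads per probe for 118 libraries, and the submitters' processing notes name bcl2fastq 2.20.422, fastp 0.23.2, STAR 2.7.10b and DESeq2 1.38.0. The genome build behind the probes was not given in the sources used here. Of 22069 rows 1 was incomplete and was left out, and 0 columns belonged to no sample. Total counts ranged from 1061359 to 5250260 (median 3702007), and their number limits the precision of low features. Intervals and floors (3 counts) cover counting error only.

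Counts were fitted per chemical with edgeR 4.0.16 (R 4.3.3, filterByExpr, TMM, quasi-likelihood F test), on all features, with Benjamini-Hochberg adjustment per contrast. Contrasts were C2 to C5 against C1 and a slope on log2 concentration, given as the fitted change from C1 to C5. Standard errors were the log2 change over the square root of F. CPM used TMM factors over all libraries, and log2 CPM a prior count of 2. The fit was tested on simulated data first. Columns of fold changes or p-values by the authors were not used.

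Groups came from the sample labels, which also give the replicate number as the HepaRG batch, so numbers paired the samples. Deviations from group means correlated with a median r of 0.0362 for pairs of libraries of the same batch (232 pairs) and -0.0154 for the others (464 pairs). The members, lists and tests were chosen with earlier results of these data known. All member rows are named, and of each list the 3 features called in 1 direction in most chemicals, ties going to the larger median change. Some features that this rule selects are not reported here. For likeness the 2 features with the highest r are named, and of the markers the examples were chosen after their values were seen. Alternatives were RLE size factors, DESeq2 1.42.0, no filter, a filter at 1 CPM in 3 libraries, the batch as a block, thinning of all libraries to 1061359 counts, and leaving out batches or single libraries. Proteins of the related genes were not compared here.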

Additional observations from a re-analysis of the deposited data

How the results depend on the processing

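Of the 33 calls at C5, 33 were kept with RLE size factors, DESeq2, no filter or the 1 CPM filter, 24 with the batch as a block and 17 after thinning to the lowest total, which shows what depth limits. In every alternative 15 were called, CNN1 in tacedinaline among them, and 0 of the 33 changed direction. Leaving out a batch ended the call in at least 1 case for 14 of them, and 19 were kept in all. No library was under 500000 counts, so a minimum at that value gave no further result.

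With the batch as a block (the replicate block, the paired fit), member calls at C5 went from 3 to 1 in apicidin, 4 to 2 in scriptaid and 4 to 1 in valproic acid. They also went from 7 to 6 in mocetinostat and 5 to 4 in vorinostat. Summed over C2 to C4 they went from 5 to 3 in apicidin, 1 to 0 in panobinostat, 3 to 1 in scriptaid, 8 to 5 in tacedinaline and 2 to 1 in valproic acid. In mocetinostat they went from 3 to 1 at C3 and from 6 to 5 at C4. By trend they went from 1 to 0 in trichostatin A and from 4 to 5 in valproic acid. After thinning, with smaller changes left out, member calls were 1 in apicidin, 3 in mocetinostat, 1 in panobinostat and 2 in valproic acid at C5. At C2 to C4 they were then 2 in apicidin, 4 in mocetinostat, 0 in panobinostat, 1 in scriptaid and 1 in valproic acid, and by trend 2 each in panobinostat, scriptaid and valproic acid and 0 in trichostatin A. Without a filter scriptaid had 5 at C2 to C4, and trichostatin A had 1 at C5, as with DESeq2 and without its C1 replicate 3.

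Without 1 batch, or without scriptaid C4 replicate 3 or mocetinostat C2 replicate 3 (both chosen after seeing the data), the calls at C5 ranged from 1 to 2 in apicidin, 5 to 7 in mocetinostat, 3 to 5 in panobinostat, 2 to 7 in scriptaid, 5 to 6 in tacedinaline, 0 to 1 in trichostatin A and 1 to 3 in valproic acid, and were 4 in vorinostat. The 7 in scriptaid came without its C4 replicate 3. At C2 to C4 they ranged from 3 to 5, 3 to 9, 0 to 2, 0 to 4, 7 to 8, 0 to 0, 1 to 2 and 3 to 4, and by trend from 3 to 4, 5 to 7, 3 to 5, 1 to 6, 6 to 7, 0 to 1, 2 to 4 and 3 to 4, in the same order of chemicals with vorinostat last.

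Uncalled log2 changes that changed sign at C5 were FLNA in apicidin (-0.13) and vorinostat (0.082) and VIL1 in trichostatin A (0.42) with the block, and VIL1 in trichostatin A (0.96) after thinning. Without 1 batch, FLNA ranged from -0.034 to 0.31 in apicidin and from -0.45 to 0.11 in valproic acid, TAGLN from -0.31 to 1.29 in apicidin and from -0.80 to 0.53 in valproic acid. In trichostatin A, where the removal of C1 replicate 3 alone is one of the cases, ACTA2 ranged from -0.026 to 0.86, GSN from -0.10 to 0.50, VIL1 from -0.63 to 0.66 and TPM1 from -0.45 to 0.15. The cause of these changes was not tested.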
